A study of Homo sapiens with 6 samples.

Results

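The genes followed here, 41 in number, were taken by symbol from a list of pathway members. They encode enzymes that build glycerophospholipids and sphingolipids, and some that break sphingolipids down. The rule for membership holds no threshold on measured values, but the list was drawn up with earlier results of these data known. All 41 had a row in a table of 27470 genes, and 35 of them had enough counts to be tested among 12233 genes. 22Rv1, a human castration-resistant prostate cancer cell line, had been transduced with a pInducer20 lentivirus that carries ABHD5 behind a doxycycline (Dox)-inducible promoter and selected with G418, so that all 6 libraries came from cells with the transgene. The 3 control libraries were from cells kept without Dox, and the 3 ABHD5 overexpression (ABHD5-OE) libraries were from cells given Dox for 48 h. The Dox dose for these libraries, whether the line was a pool or a clone, and whether the replicates were separate cultures were not given in the sources used here, so the p-values measure only the spread between these libraries. Cells without the transgene that received Dox were not analysed here, so an effect of Dox and an effect of ABHD5 cannot be told apart. RNA was measured by 3′ mRNA-seq, which reads the end of each transcript.

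ABHD5 is a lipid droplet protein that activates the triglyceride lipase ATGL (PNPLA2). Phosphatidylcholine and phosphatidylethanolamine are made on a diacylglycerol backbone, and whether triglyceride breakdown feeds this route was not tested. In this route, the Kennedy pathway, choline or ethanolamine is phosphorylated, activated with CTP and joined to diacylglycerol. Phosphatidylinositol, phosphatidylglycerol and cardiolipin are instead made from CDP-diacylglycerol, and phosphatidylserine by exchange of head groups. Sphingolipid synthesis starts with serine palmitoyltransferase, passes through dihydroceramide and ceramide, and ends in sphingomyelin, glucosylceramide or, after breakdown of ceramide, sphingosine 1-phosphate.

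Between 3394672 and 5988151 reads per library were assigned to genes in the control group and between 3460471 and 7271771 in the ABHD5-OE group, and the 41 genes took 0.162% to 0.194% of them. Reads assigned to no feature were 32.5% to 34.6% of the table in control and 35.6% to 39.5% in ABHD5-OE libraries, and the part of this difference in the results was not tested. Levels are given as CPM, the counts of a gene scaled to one common library size, with TMM factors, and a limit of 3 counts came to between 0.394 and 0.930 CPM. ABHD5 itself was at 63.5, 58.0 and 62.8 CPM without Dox and 126, 131 and 91.7 CPM with Dox, a log2 fold change of 0.91 (SE 0.15, adjusted p = 1.98e-04 by edgeR's quasi-likelihood test). Whether these 3′ reads came from the transgene or from the cell's own ABHD5 gene cannot be told apart. Of 7 prostate luminal markers, 3 were lower with Dox (KLK2, KRT18 and TMPRSS2), 4 did not pass and none was higher, and the summed level of the 7 was 531 to 566 CPM in control and 397 to 471 CPM in ABHD5-OE libraries. Of 5 neuroendocrine markers, CHGB and SYP were tested and both were higher, with a summed level of 71.0 to 88.7 CPM against 123 to 166 CPM, while CHGA and INSM1 were at 0. The 3 basal and 4 leukocyte markers stayed within 3 counts per library, with KRT5 and KRT14 at 0. Of 5 fibroblast markers, 2 were tested and COL1A1 was higher, and their summed level was 4.96 to 9.60 CPM against 6.4 to 9.98 CPM. The part of these marker changes in the results was not tested, and in bulk RNA fewer cells of a type and less RNA per cell cannot be told apart.

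With Dox, the members moved in both directions. CHPT1 and CHKA, which act at the last and the first step of phosphatidylcholine synthesis, fell by more than any other tested member, and CERS5, ETNK2, LPCAT1, DEGS1 and CDIPT rose. At an adjusted p below 0.05, 5 of the 35 tested members were called higher (14.3%) and 7 lower (20%), where 11.9% of all 12233 genes tested were called higher and 13.7% lower. The groups of 3 libraries did not overlap for 7 members that were higher and 7 that were lower, where 19.0% of all genes tested lay wholly higher and 20.5% wholly lower. These shares were near the background, so the counts alone set the list apart in neither direction. The median log2 fold change was -0.01 over the tested members and 0.02 over all genes tested, and the median size of the change, whatever its sign, was 0.25 against 0.30. A change of at least 1 on the log2 scale was seen for 2 tested members (5.71%) and 986 genes in all (8.06%). The calls on CHPT1, CHKA, CERS5 and DEGS1 were kept under each of 14 alternative settings, and the other 8 calls were each lost under at least 3.

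**Figure D1:**
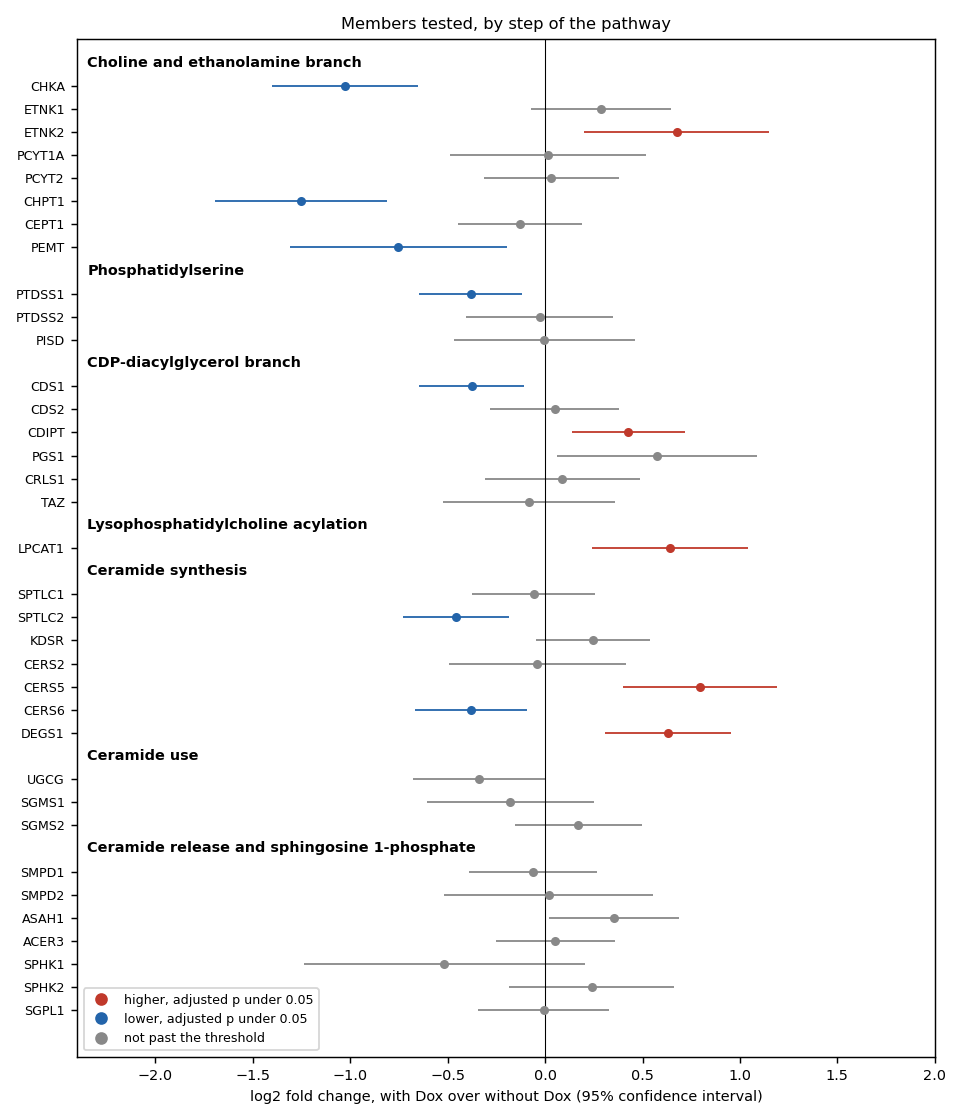
Log2 fold change (ABHD5-OE over control) of the 35 tested members, grouped by role, with 95% confidence intervals from edgeR's quasi-likelihood fit and a colour for each call. CHPT1 (-1.25) and CHKA (-1.03) lie farthest below 0 and CERS5 (0.80) farthest above it, and most other intervals reach or come close to 0.

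Of the 10 genes for the choline and ethanolamine branch, 8 were tested, 3 fell, 1 rose and 4 did not pass. Choline kinase alpha (CHKA, chr11:68052859-68121444, minus strand of hg38) phosphorylates choline. It was at 144, 104 and 187 CPM in control replicates 1 to 3 and at 82.4, 60.9 and 70.9 CPM in ABHD5-OE replicates 1 to 3. All control libraries lay above all ABHD5-OE libraries, and replicate 2 was the lowest in either group. The log2 fold change was -1.03 (SE 0.18, 95% confidence interval -1.4 to -0.65, adjusted p = 3.85e-04), and it ran from -1.22 to -0.80 when each library was left out. A GENCODE gene without a symbol lies on the opposite strand across the 3′ end of CHKA, and since it was not stated whether the counting used strand, reads of the 2 genes cannot be told apart.

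Choline phosphotransferase 1 (CHPT1, chr12:101696947-101744140, plus strand) joins CDP-choline to diacylglycerol in the Golgi. It was at 118, 72.9 and 135 CPM without Dox and at 48.3, 31.4 and 55.8 CPM with Dox. The groups did not overlap, and replicate 2 was again the lowest in either group. The mean was 108 ± 31.9 CPM (SD, n = 3) in control and 45.2 ± 12.5 CPM (SD, n = 3) in ABHD5-OE cells. The log2 fold change was -1.25 (SE 0.21, 95% confidence interval -1.69 to -0.81, adjusted p = 2.60e-04), and it ran from -1.47 to -1.07 with each library left out. CEPT1, the relative of CHPT1 in the endoplasmic reticulum that accepts both CDP-choline and CDP-ethanolamine, was at 56.7, 65.7 and 50.3 CPM without Dox and 46.1, 60.1 and 51.4 CPM with Dox. Its groups overlapped, with a log2 fold change of -0.13 (95% confidence interval -0.45 to 0.19, adjusted p = 0.580).

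The 300-base promoter windows of both phosphotransferases, from RefSeq on GRCh38.p14, are shown because CHPT1 had the largest fold change among the members and CEPT1 is its nearest relative. Each runs 5′ to 3′ from 250 bases before to 50 bases after a transcript start, and capitals mark matches to the motifs searched on both strands. The motifs were the GC box GGGCGG and the CCAAT box CCAAT as well as the E-box CACGTG with the sterol element TCACNCCAC and the TATA box TATAAA. The CHPT1 window (chr12:101697390-101697689, plus strand) held 4 GC boxes, of which 2 overlap, and no other motif. The upstream one of 2 CEPT1 windows (chr1:111139599-111139898, plus strand) held 2 GC boxes and is printed. The other CEPT1 window (chr1:111139973-111140272, plus strand) held none of the motifs and is not printed.
CHPT1: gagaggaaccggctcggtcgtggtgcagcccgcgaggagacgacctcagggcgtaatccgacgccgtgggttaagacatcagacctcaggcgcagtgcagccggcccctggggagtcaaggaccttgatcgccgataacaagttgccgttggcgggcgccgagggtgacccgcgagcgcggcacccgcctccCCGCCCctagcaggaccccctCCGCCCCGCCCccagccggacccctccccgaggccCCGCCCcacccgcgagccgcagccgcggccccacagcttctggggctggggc
CEPT1: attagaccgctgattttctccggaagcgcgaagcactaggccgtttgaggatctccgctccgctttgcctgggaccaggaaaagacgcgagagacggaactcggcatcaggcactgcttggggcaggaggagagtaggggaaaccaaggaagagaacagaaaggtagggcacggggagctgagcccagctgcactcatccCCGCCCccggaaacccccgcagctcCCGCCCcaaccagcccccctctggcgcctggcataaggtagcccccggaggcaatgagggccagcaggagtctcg
Among 35116 windows of 27305 genes, 44.95% held a GC box, 34.61% a CCAAT box, 7.256% an E-box, 1.128% the sterol element and 11.53% a TATA box. Among 46 windows of 33 members, the shares were 73.91%, 21.74%, 4.348%, 0% and 2.174%, and the median GC content was 70.2% against 58.7% in all windows. The windows of all genes include many genes that were not tested, and no background of expressed genes was taken. These shares therefore do not mark a trait of the members. A GC box stood in 5 of 6 windows of members that rose and in 6 of 7 windows of members that fell. A match describes the letters of the window and is no evidence of a bound site.

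Phosphatidylethanolamine N-methyltransferase (PEMT, chr17:17505563-17591708, minus strand) makes phosphatidylcholine by methylation, outside the Kennedy pathway. It was at 9.40, 17.1 and 11.7 CPM in control and at 7.18, 6.4 and 8.41 CPM in ABHD5-OE libraries. The groups did not overlap, and control replicate 2 stood above the other controls. The log2 fold change was -0.75 (SE 0.26, adjusted p = 0.0448 by edgeR's quasi-likelihood test). The call was lost without control replicate 2 (-0.52, adjusted p = 0.216), without control replicate 3 (-0.82, adjusted p = 0.0710), without ABHD5-OE replicate 1 (-0.73, adjusted p = 0.109) and without ABHD5-OE replicate 2 (-0.67, adjusted p = 0.0909). Ethanolamine kinase 2 (ETNK2, chr1:204131062-204152044, minus strand) was at 9.14, 7.75 and 8.73 CPM without Dox and 14.6, 12 and 14.3 CPM with Dox. Each ABHD5-OE library was above each control, and the log2 fold change was 0.67 (SE 0.23, adjusted p = 0.0355). This call held without ABHD5-OE replicate 2, and it was lost without any other single library (control replicates 1, 2 and 3 and ABHD5-OE replicates 1 and 3), where the log2 fold change was 0.61 to 0.70 and the adjusted p 0.0820 to 0.106. With all 6 libraries, DESeq2 called neither PEMT (adjusted p = 0.0857) nor ETNK2 (adjusted p = 0.102). PEMT was also lost with library totals, upper quartile factors and the deposited normalized values, and ETNK2 with no filter. Both PEMT and ETNK2 share their 3′ end with an opposite-strand gene without a symbol, so their counts are uncertain in the way given for CHKA.

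The other tested genes of this branch did not pass. ETNK1, the second ethanolamine kinase, had a log2 fold change of 0.29 (95% confidence interval -0.07 to 0.65, adjusted p = 0.241) and was called without control replicate 3 (0.50, adjusted p = 0.0425). PCYT1A, the CTP-using enzyme that sets the pace of phosphatidylcholine synthesis, and PCYT2, its counterpart for ethanolamine, had log2 fold changes of 0.01 (95% confidence interval -0.49 to 0.52) and 0.03 (95% confidence interval -0.31 to 0.38). The second choline kinase, CHKB, was left out by the filter with counts of 5, 2 and 3 in control and 9, 1 and 24 in ABHD5-OE libraries, and it overlaps a readthrough gene with CPT1B. Genes on the opposite strand also lie across the 3′ ends of PCYT1A (SLC51A), PCYT2 (ANAPC11 and NPB) and CEPT1, and, among the members described below, of PISD, PGS1, CERS2, DEGS2, SGMS2 and SPHK2, so the values of these genes are uncertain too. PCYT1B had 0, 2 and 0 counts in control and none in ABHD5-OE libraries, which does not exceed the limit of 3 counts.

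**Figure D2:**
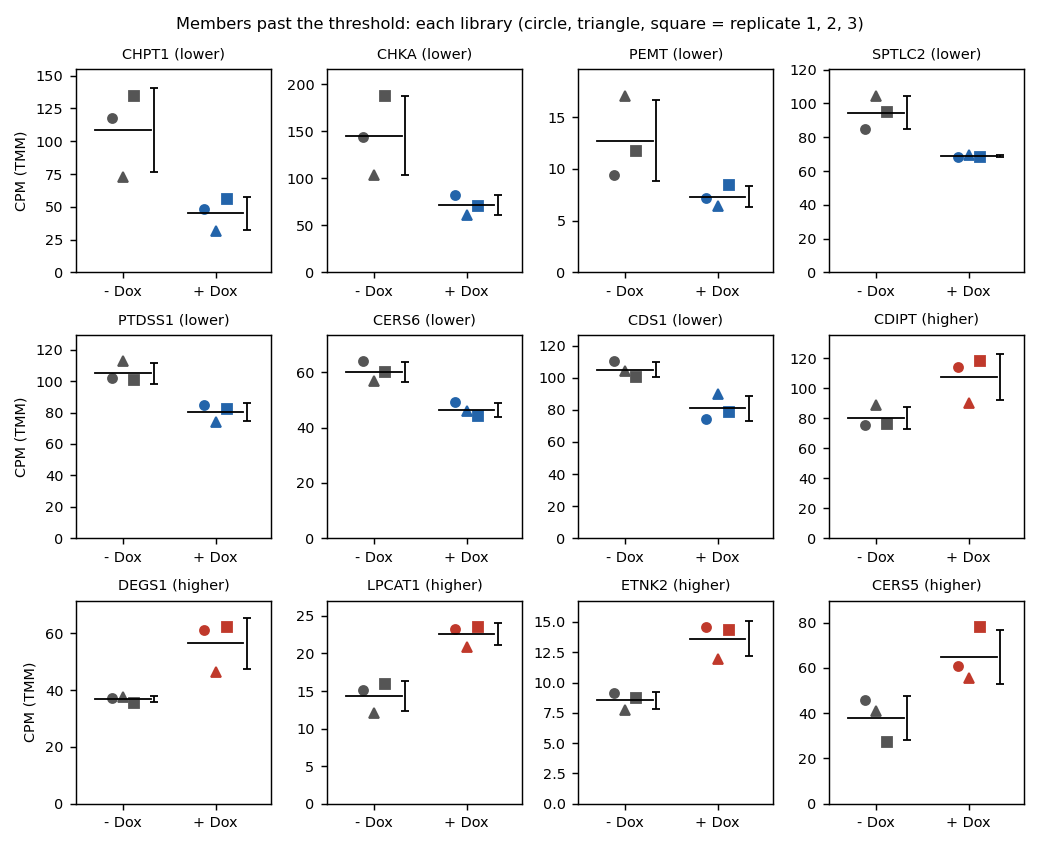
CPM after TMM scaling, on a linear axis from 0, of the 12 members called, one panel per gene, with a point for each of the 3 control and 3 ABHD5-OE libraries and the mean ± SD. The groups do not overlap in any of the 12 panels, and for CDIPT the highest control (89.0 CPM) and the lowest ABHD5-OE library (90.2 CPM) lie close together.

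Phosphatidylserine synthesis was represented by 3 tested genes, of which 1 fell and none rose. Phosphatidylserine synthase 1 (PTDSS1), which exchanges the choline of phosphatidylcholine for serine, was at 102, 113 and 101 CPM in control and at 85.0, 73.7 and 82.1 CPM in ABHD5-OE libraries. The groups were apart by more than the range within either, and the log2 fold change was -0.38 (SE 0.13, 95% confidence interval -0.65 to -0.12, adjusted p = 0.0338 by edgeR's quasi-likelihood test). The call held without ABHD5-OE replicate 3 and was lost without any of control replicates 1, 2 and 3 and ABHD5-OE replicates 1 and 2, where the log2 fold change was -0.43 to -0.33 and the adjusted p 0.0526 to 0.115. PTDSS2, which uses phosphatidylethanolamine, had a log2 fold change of -0.03 (95% confidence interval -0.41 to 0.35), and PISD, the mitochondrial phosphatidylserine decarboxylase, one of -0.01 (95% confidence interval -0.47 to 0.46).

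Of 6 genes around CDP-diacylglycerol, 1 rose, 1 fell and 4 did not pass. CDP-diacylglycerol synthase 1 (CDS1, chr4:84583127-84651334, plus strand) was at 110, 105 and 101 CPM without Dox and 74.6, 89.9 and 78.5 CPM with Dox. All ABHD5-OE libraries were below all controls, with a log2 fold change of -0.38 (SE 0.13, adjusted p = 0.0377). The call held without ABHD5-OE replicate 2 and was lost without control replicate 1, 2 or 3 and without ABHD5-OE replicate 1 or 3, with log2 fold changes of -0.41 to -0.32 and an adjusted p of 0.0579 to 0.156. Phosphatidylinositol synthase (CDIPT, chr16:29858357-29863414, minus strand), which takes CDP-diacylglycerol as its substrate, was at 75.8, 89.0 and 76.5 CPM without Dox and 114, 90.2 and 118 CPM with Dox. ABHD5-OE replicate 2 lay just above control replicate 2, and the other 2 ABHD5-OE libraries were well above all controls. The log2 fold change was 0.43 (SE 0.14, adjusted p = 0.0310), and the call was lost without control replicate 1 (0.37, adjusted p = 0.143), control replicate 3 (0.39, adjusted p = 0.10), ABHD5-OE replicate 1 (0.38, adjusted p = 0.124) or ABHD5-OE replicate 3 (0.35, adjusted p = 0.0902). PGS1, the first enzyme on the way to phosphatidylglycerol and cardiolipin, was higher in each ABHD5-OE library (10.7, 10.3 and 12.6 CPM) than in each control (6.53, 7.44 and 8.55 CPM) but did not pass (log2 fold change 0.57, 95% confidence interval 0.06 to 1.09, adjusted p = 0.0938). CDS2 had a log2 fold change of 0.05, CRLS1, cardiolipin synthase, 0.09 and TAZ, here the cardiolipin remodelling enzyme tafazzin, -0.08. A gene without a symbol lies on the same strand across the 3′ end of CRLS1, so the counts of CRLS1 are uncertain.

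Lysophosphatidylcholine acyltransferase 1 (LPCAT1, chr5:1456480-1523962, minus strand), which puts a fatty acid back on lysophosphatidylcholine, was at 15.2, 12.1 and 15.9 CPM in control and at 23.3, 20.9 and 23.5 CPM in ABHD5-OE libraries. The groups did not overlap, and the log2 fold change was 0.64 (SE 0.19, 95% confidence interval 0.24 to 1.04, adjusted p = 0.0203 by edgeR's quasi-likelihood test). The call was lost without control replicate 1 (0.66, adjusted p = 0.0579), control replicate 2 (0.53, adjusted p = 0.0844) or ABHD5-OE replicate 1 (0.62, adjusted p = 0.0621). LPCAT2 was left out by the filter, with 1, 2 and 3 counts in control and 0, 2 and 4 in ABHD5-OE libraries.

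Ceramide synthesis was represented by 10 genes, of which 7 were tested, 2 rose, 2 fell and 3 did not pass. SPTLC2, which fell, acts at the first step, where SPTLC1 (log2 fold change -0.06) did not pass. KDSR (0.25), at the next step, did not pass either. The ceramide synthases each attach a fatty acid of a preferred length, and at this shared step CERS5 rose and CERS6 fell. DEGS1, which rose, acts after them, so the calls showed no order by step. Ceramide synthase 5 (CERS5, chr12:50129289-50167533, minus strand), known for palmitoyl chains, was at 46.0, 40.9 and 27.1 CPM without Dox and 60.7, 55.4 and 78.0 CPM with Dox. Each ABHD5-OE library was above each control, and replicate 3 was the lowest control and the highest ABHD5-OE library. The log2 fold change was 0.80 (SE 0.19, 95% confidence interval 0.40 to 1.19, adjusted p = 0.00459), and 0.58 to 0.94 with each library left out. Ceramide synthase 6 (CERS6, chr2:168456249-168775134, plus strand), also known for palmitoyl chains, was at 64.0, 56.8 and 60.0 CPM without Dox and 49.1, 45.9 and 44.3 CPM with Dox. The groups did not overlap, but the log2 fold change of -0.38 (SE 0.14, 95% confidence interval -0.67 to -0.09) had an adjusted p of 0.0498, just inside the threshold. This call was lost with any 1 of the 6 libraries, control replicates 1 to 3 and ABHD5-OE replicates 1 to 3, left out (log2 fold change -0.42 to -0.34, adjusted p 0.0651 to 0.165), and of the 14 alternatives it passed in 1, the replicate block. An opposite-strand gene without a symbol overlaps the 3′ end of CERS5 and the antisense gene CERS6-AS1 that of CERS6, so both sets of counts are uncertain.

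The promoter windows of these ceramide synthases are shown because the genes were called in opposite directions (RefSeq, GRCh38.p14, 5′ to 3′, with motif matches in capitals as for CHPT1). The CERS5 window (chr12:50167320-50167619, minus strand) held 5 GC boxes, and the CERS6 window (chr2:168456022-168456321, plus strand) held 3 GC boxes, of which 2 overlap, and 1 CCAAT box.
CERS5: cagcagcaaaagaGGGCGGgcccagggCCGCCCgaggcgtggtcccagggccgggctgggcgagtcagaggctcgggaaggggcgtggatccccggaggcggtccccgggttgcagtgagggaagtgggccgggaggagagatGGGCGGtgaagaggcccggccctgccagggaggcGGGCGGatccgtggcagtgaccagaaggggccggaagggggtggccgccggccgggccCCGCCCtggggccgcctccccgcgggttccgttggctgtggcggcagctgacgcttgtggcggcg
CERS6: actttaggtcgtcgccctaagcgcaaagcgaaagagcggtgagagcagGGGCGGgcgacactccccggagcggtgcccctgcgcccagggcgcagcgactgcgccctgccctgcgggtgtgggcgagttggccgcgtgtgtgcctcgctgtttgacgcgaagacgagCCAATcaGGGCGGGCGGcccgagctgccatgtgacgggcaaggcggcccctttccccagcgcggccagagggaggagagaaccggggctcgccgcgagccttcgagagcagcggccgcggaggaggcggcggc
GC boxes were present before the start of both genes.

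Serine palmitoyltransferase is a complex of SPTLC1 with SPTLC2 or SPTLC3. SPTLC2 (chr14:77505997-77616637, minus strand), a catalytic subunit, was at 84.6, 105 and 94.8 CPM in control and 68.5, 69.6 and 68.3 CPM in ABHD5-OE libraries. The ABHD5-OE libraries were close together and below all controls, with a log2 fold change of -0.46 (SE 0.13, 95% confidence interval -0.73 to -0.19, adjusted p = 0.0145). The call was lost without control replicate 2 (-0.39, adjusted p = 0.0685) or ABHD5-OE replicate 1 (-0.46, adjusted p = 0.0568). SPTLC1 had a log2 fold change of -0.06 (95% confidence interval -0.37 to 0.26), and SPTLC3 had no more than 2 counts in any library. Dihydroceramide desaturase 1 (DEGS1, chr1:224175756-224193441, plus strand), which turns dihydroceramide into ceramide, was at 37.1, 37.5 and 35.6 CPM without Dox and 61.1, 46.2 and 62.1 CPM with Dox. The controls were close together, and all ABHD5-OE libraries were above them, replicate 2 by the least. The log2 fold change was 0.63 (SE 0.15, 95% confidence interval 0.31 to 0.95, adjusted p = 0.00555) and ran from 0.55 to 0.75 with each library left out. KDSR, which reduces the product of serine palmitoyltransferase, was higher in each ABHD5-OE library than in each control without passing (log2 fold change 0.25, adjusted p = 0.213). CERS2, a synthase for very long chains, had a log2 fold change of -0.04 (95% confidence interval -0.50 to 0.41). CERS4 had 2, 2 and 3 counts in control and 5, 4 and 14 in ABHD5-OE libraries, DEGS2 had 4, 6 and 14 against 7, 3 and 12, and neither was tested.

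None of the 10 tested genes that use or break down ceramide was called. Among the 3 that place a head group on ceramide, UGCG, glucosylceramide synthase, came nearest (log2 fold change -0.34, 95% confidence interval -0.68 to 0.00, adjusted p = 0.138 by edgeR's quasi-likelihood test), and the sphingomyelin synthases SGMS1 and SGMS2 had values of -0.18 and 0.17. UGCG was called without control replicate 2 (-0.49, adjusted p = 0.0386). Among the 7 genes for release of ceramide and for sphingosine 1-phosphate, log2 fold changes ran from -0.52 to 0.35. The lowest was that of sphingosine kinase 1 (SPHK1), on 25, 19 and 28 counts in control and 11, 19 and 33 in ABHD5-OE libraries, with a 95% confidence interval of -1.24 to 0.20. The highest was that of acid ceramidase (ASAH1), with a 95% confidence interval of 0.02 to 0.69 and an adjusted p of 0.113, and it was called without ABHD5-OE replicate 1 (0.50, adjusted p = 0.0423). The sphingomyelinases SMPD1 and SMPD2, the ceramidase ACER3 and the lyase SGPL1 lay between -0.06 and 0.05, and SPHK2 at 0.24. The 3′ end of SGPL1 also overlaps a same-strand gene without a symbol, so its counts are uncertain.

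Ratios within a library do not depend on how libraries were scaled, so 6 pairs of members were compared in that way: enzymes for the same or a parallel step, enzymes that both use ceramide, and the subunits of serine palmitoyltransferase. The log2 ratio of PTDSS1 to PTDSS2 was 2.15 ± 0.06 (SD, n = 3) in control and 1.8 ± 0.34 (SD, n = 3) in ABHD5-OE libraries, a difference of -0.35 (exact two-sided permutation p = 0.2, adjusted over 6 pairs 0.45). SPTLC1 over SPTLC2 went from 0.30 to 0.69, a difference of 0.40 (exact permutation p = 0.3, adjusted 0.45). SPHK1 over SPHK2 went from -1.34 to -2.13, a difference of -0.79 (exact permutation p = 0.2, adjusted 0.45). CHKA over CHKB differed by -1.67 (exact permutation p = 0.3, adjusted 0.45), on the few CHKB counts given above. PCYT1A over PCYT2 and SGMS1 over UGCG differed by -0.06 and 0.13 (exact permutation p = 0.8 for each). The groups overlapped in all 6 ratios, and with 3 libraries against 3 no p below 0.1 can be reached. Single libraries moved these differences by over 1.5 times: PTDSS1 over PTDSS2 was -0.18 without ABHD5-OE replicate 2, SPTLC1 over SPTLC2 was 0.62 without control replicate 1 and 0.24 without control replicate 2, SPHK1 over SPHK2 was -0.47 without ABHD5-OE replicate 1, and CHKA over CHKB was -1.07 without ABHD5-OE replicate 3. The small differences of PCYT1A over PCYT2 and of SGMS1 over UGCG changed sign with 1 library left out.

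**Figure D3:**
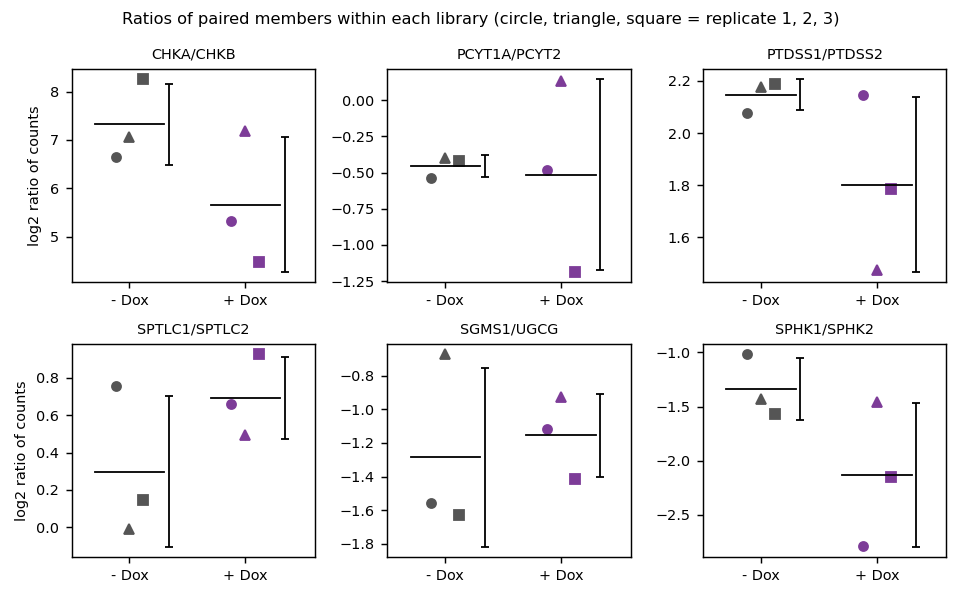
Log2 ratio of counts between paired members within each library, with 0.5 added to each count, for 6 pairs, with a point per library and the group mean ± SD. Control and ABHD5-OE points overlap in each pair, and the differences of the means run from -1.67 (CHKA over CHKB) to 0.40 (SPTLC1 over SPTLC2).

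Around the members, 111 further genes of phospholipid and sphingolipid handling were in the table. Of these, 84 were tested, and 10 rose and 10 fell. Over all genes tested, 11.9% were called higher and 13.7% lower, so these counts were near the background, and the counts of the single lists are given as a description only. Of 16 tested genes for other synthesis steps and acyl exchange, 3 fell and none rose. They were the lipid carriers STARD7 (-0.77, adjusted p = 4.52e-04 by edgeR's quasi-likelihood test) and STARD10 (-0.63, adjusted p = 0.00474) and the fatty acyl-CoA reductase FAR2 (-0.46, adjusted p = 0.0299). Of 6 tested genes for choline and ethanolamine uptake, 2 fell, the transporters FLVCR1 (-0.50, adjusted p = 0.0204) and SLC44A1 (-0.41, adjusted p = 0.0340). Of 19 tested genes listed for phospholipid breakdown, 4 rose and none fell. Among them were PNPLA6, a lysophospholipase (0.88, adjusted p = 0.0109 by edgeR's quasi-likelihood test), and ABHD3 (1.11, adjusted p = 0.0126), whose groups overlapped. PLD3 (1.46, adjusted p = 2.97e-05) was listed by its phospholipase D family name, and whether its protein breaks down phospholipids was not tested. The calls on STARD7, STARD10 and PLD3 held under all 14 alternatives. Others were lost with 1 library left out: FAR2 without control replicate 2 or 3 or ABHD5-OE replicate 2 (-0.45 to -0.34), FLVCR1 without control replicate 1 or ABHD5-OE replicate 1 (-0.51 and -0.40), and SLC44A1 without any library but ABHD5-OE replicate 3 (-0.44 to -0.36). PNPLA6 and ABHD3 were lost without control replicate 1 (0.76 and 1.02) or ABHD5-OE replicate 3 (0.63 and 0.72). FAR2, SLC44A1 and FLVCR1 were also lost when libraries were scaled by their totals alone, and FAR2 and SLC44A1 with upper quartile factors.

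Of 11 tested genes that control or partner ceramide synthesis, 2 rose and 1 fell. ORMDL3, 1 of the 3 ORMDL proteins that restrain serine palmitoyltransferase, was at 20.4, 22.0 and 23.4 CPM in control and 68.9, 62.9 and 64.1 CPM in ABHD5-OE libraries. The groups lay far apart, with a log2 fold change of 1.57 (SE 0.15, adjusted p = 5.56e-07 by edgeR's quasi-likelihood test). ORMDL2, of the same family, was lower (-0.56, adjusted p = 0.00632), with means of 186 CPM in control and 126 CPM in ABHD5-OE libraries. ORMDL1 did not pass, with means of 69.5 and 75.6 CPM. ORMDL3, with means of 21.9 and 65.3 CPM, was thus the lowest of the 3 in both groups, and the level of the family as a whole was not tested. SAMD8, a ceramide phosphoethanolamine synthase, was higher (0.51, adjusted p = 0.0234). Of 10 tested genes listed for glycosphingolipids, 1 fell, the sialyltransferase ST3GAL1 (-0.94, adjusted p = 2.00e-05). Whether ST3GAL1 acts on glycosphingolipids in these cells was not tested. Of 22 tested genes for sphingolipid breakdown and sphingosine 1-phosphate signalling, 4 rose, among them the lysosomal genes PSAP (0.92, adjusted p = 5.24e-05), ARSA (0.58, adjusted p = 0.00495) and GM2A (0.96, adjusted p = 0.0151). In the same list 3 fell, ALDH3A2 (-0.68, adjusted p = 6.91e-04), the sphingomyelinase SMPD4 (-0.62, adjusted p = 0.0135) and the lysosomal galactosidase GLA (-0.75, adjusted p = 0.0359). The calls on ORMDL3, ORMDL2, ST3GAL1, PSAP, ARSA and ALDH3A2 held under all 14 alternatives. With 1 library left out, SAMD8 was lost without control replicate 1 or 3 (0.50 and 0.44), and GM2A without control replicate 1 or 3 (0.84 and 0.88). SMPD4 was lost without control replicate 1 or ABHD5-OE replicate 1 (-0.58 and -0.57). GLA was lost without control replicate 1 or 3 (-0.85 and -0.49) or ABHD5-OE replicate 1 or 3 (-0.84 and -0.58). The call on GLA was also lost with DESeq2, library totals, upper quartile factors and the deposited normalized values.

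**Figure D4:**
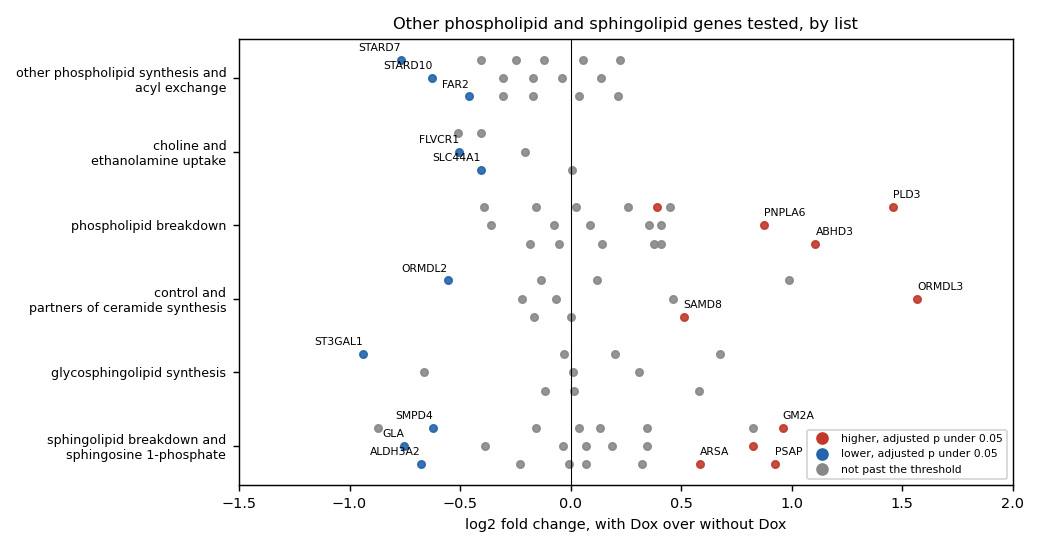
Log2 fold change (ABHD5-OE over control) of the 84 tested genes in 6 lists around the members, one point per gene, coloured by call. ORMDL3 (1.57) and PLD3 (1.46) lie highest and ST3GAL1 (-0.94) lowest.

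The scaling of libraries decided several of the smaller decreases. With library totals alone in place of TMM, the middle of the log2 fold changes over the whole table shifted from 0.02 to 0.14, the share of calls that were higher went from 46.4% to 65.7%, and the members called were 7 higher and 2 lower in place of 5 and 7. CHKA and CHPT1 were still called lower, and the calls on PEMT, PTDSS1, CDS1, SPTLC2 and CERS6 were lost, while PGS1 and ASAH1 were called higher. With upper quartile factors the share of calls that were higher was 55.6%, and 3 members were called lower. Relative to the median of all genes, CHKA lay at -1.04 and CDS1 at -0.39 both with TMM and with library totals. A change of scaling shifts all genes by nearly the same amount, so this agreement was fixed in advance and does not show which scaling is right.

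**Figure D5:**
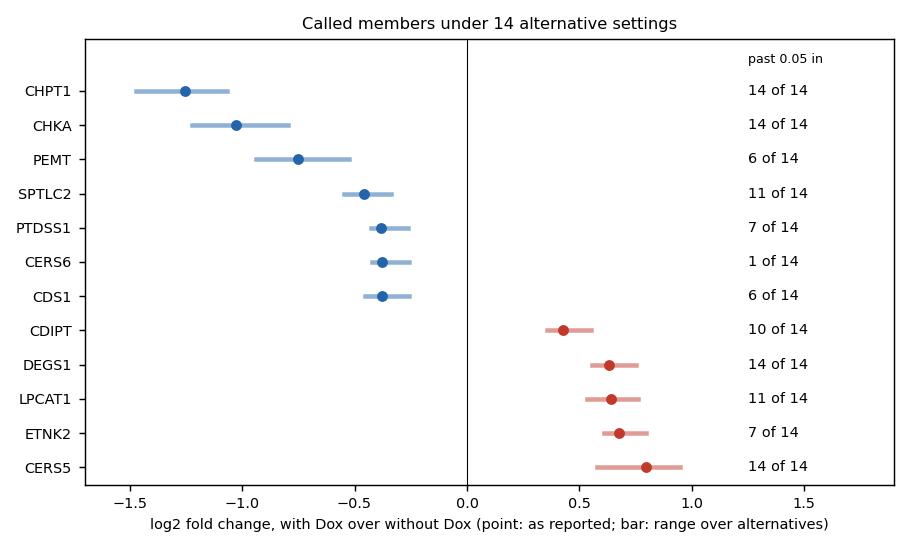
Log2 fold change (ABHD5-OE over control) of the 12 called members as reported (point), with a bar for its range over the 14 alternatives, and beside it the number of alternatives in which the adjusted p stayed under 0.05. CHPT1, CHKA, CERS5 and DEGS1 were called in all 14 alternatives, and CERS6 in 1.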

How the data were processed

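The authors prepared RNA with Lexogen QuantSeq 3′ kits (the labels name the FWD version, the methods the REV version) and sequenced single 100 bp reads. Per the labels, CASAVA 1.8.2, FastQC, STAR, HTSeq and edgeR with hg38 were used. The role of strand in counting is not given in the sources used here. The deposited counts are whole reads per gene for the 6 libraries in a table of the series. The single-library files hold deposited normalized signal values, and their scaling is not given in the sources used here. They served only as an alternative, without 27 rows whose names differed in one file. The 5 rows that name no gene were left out (no feature, 32.5% to 39.5% of the table, and ambiguous, 3.05% to 3.37%).

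Counts were scaled by TMM, filtered with filterByExpr (count minimum 10) and tested over all genes with edgeR 4.0.16 (glmQLFit and glmQLFTest) in R 4.3.3, with Benjamini-Hochberg adjustment over 12233 genes and a threshold of 0.05. DESeq2 1.42.0 and limma 3.58.1 (log2 of value plus 1) gave alternatives. The steps were tested on simulated data. Ratios were compared by exact permutation in scipy 1.17.1. Depth limits the precision, and counting limits cover counting error only.

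The members and gene lists were chosen with earlier results of these data known. Every called member was named with all 6 values, and up to 3 genes per direction from each other list. The symbol TAZ was read as tafazzin, since WWTR1 has a row of its own. Gene positions are from GENCODE 44 on hg38. Promoter windows were given for 33 members, without CHKA, PTDSS1, TAZ, LPCAT2, SPTLC3, CERS2, CERS4 and ASAH1. Some luminal markers are not reported here. The study's other assays were not analysed here.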

Additional observations from a re-analysis of the deposited data

How the results depend on the processing

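The number of members called lower (7) was 2 with library totals, 3 with upper quartile factors and 2 to 5 with 1 library left out, and the number called higher (5) was 2 to 5 with 1 library left out. Among the other lipid genes, 10 higher became 15 with library totals and 5 to 12 with 1 library left out, and 10 lower became 6 with library totals and 6 to 11 with 1 library left out. Over all genes, 3125 calls became 2181 to 3112 with 1 library left out, 2632 with DESeq2 and 3315 with library totals. The log2 ratio of PCYT1A to PCYT2 differed by -0.38 to 0.28 with 1 library left out (0.28 without ABHD5-OE replicate 3), and that of SGMS1 to UGCG by -0.040 to 0.44 (-0.040 without control replicate 3 and -0.0034 without control replicate 1). The other ratio differences ran from -2.43 to -1.07 (CHKA to CHKB), -0.52 to -0.18 (PTDSS1 to PTDSS2), 0.24 to 0.62 (SPTLC1 to SPTLC2) and -1.13 to -0.47 (SPHK1 to SPHK2) with 1 library left out. The causes were not tested. Of the settings of single genes' fold changes, 129 kept the call, 53 lost it and none changed sign.

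Same-numbered libraries correlated at -0.01, 0.25 and 0.09 in their deviations from the group means. The 0.25 of replicate 2 was the highest correlation between any control and any ABHD5-OE library, while control replicates 1 and 3 correlated best with another number. Whether replicate numbers mark pairs was not given in the sources used here and cannot be settled from these values. With the replicate block, 5 members were called higher and 7 lower, the same 12 genes, and 3537 genes were called in all. ABHD5 stayed higher in all 14 alternatives, at 0.81 to 1.06.

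Low counts limited 6 members, which were not tested. They left wide intervals for PEMT, PGS1, SMPD2, ETNK2 and SPHK1, the last with 11 to 33 counts per library.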

Other observations

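Replicate 2 was the lowest library of both groups for 11 of the 35 tested members (31.4%), which include CHKA, CHPT1, ETNK1, LPCAT1 and SGPL1. Of all 12233 genes tested, 2170 (17.7%) had replicate 2 lowest in both groups, 953 (7.79%) had replicate 1 lowest and 1463 (12%) had replicate 3 lowest. CERS2 had the clearest pattern, with 120, 65.1 and 127 CPM without Dox and 119, 69.0 and 115 CPM with Dox. Replicate 2 stood apart from the other libraries of its group in both cases. The genes were chosen after their values were seen, and the pattern was not tested.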
